A study of Rattus norvegicus with 30 samples.

Results

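Whole-lung RNA of rats on postnatal day 14 was compared between the arm labelled as kept in 85% oxygen and the arm labelled as kept in 21% oxygen (room air). These are 6 of the 30 libraries of the series, 3 in each arm, chosen by their day and oxygen labels, and all 17571 genes with enough counts to be tested were used. Per the labels, rats born on gestational days 21 to 23 were divided at random, oxygen began within 24 hours of birth, both arms had their nursing exchanged daily, and a piece of lung freed of the trachea was taken. Such oxygen exposure of newborn rodents is used to model bronchopulmonary dysplasia, in which the lungs of infants born early fail to form alveoli. No strain, sex or genotype is given in the labels. They name 12 rats per arm, against 15 libraries per arm over 5 ages, and do not say that each library is a separate animal. The p-values therefore measure only the spread between libraries, estimated over all 30 of the series.

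At this age the rat lung is finishing the formation of alveoli. Thin septa grow out from the saccule walls, carried by elastin-producing myofibroblasts, lipid-storing and matrix fibroblasts and a capillary bed that is remodelled into a single layer. High oxygen in newborn rodents is known to halt this growth, to thin the capillary bed, to damage DNA and to draw in inflammatory cells, and the p53 and NRF2 programmes are textbook responses to it. In these data the genes of those programmes stood lower, not higher, under the 85% label, so the arms are called 85%-labelled and 21%-labelled throughout and every direction is by label. Cdkn1a, the p53-driven brake on the cell cycle, measured 25.3, 29.0 and 34.0 CPM (counts scaled to library size) in the 85%-labelled libraries and 382, 462 and 447 CPM in the 21%-labelled libraries. Gdf15, a stress-induced cytokine, measured 4.91, 5.56 and 4.66 CPM against 130, 122 and 159 CPM. Nqo1, an NRF2-driven quinone reductase, averaged 40.7 ± 1.91 CPM in 85%-labelled lungs and 81.2 ± 12.0 CPM in 21%-labelled lungs (SD, n = 3 each), and Hmox1, which breaks down haem, measured 28.2, 27.4 and 22.0 CPM against 178, 83.2 and 108 CPM. All 4 genes were called lower. The titles of the 85%-labelled libraries begin with A and those of the 21%-labelled libraries with O, and the labels do not say what the letters stand for. Whether the oxygen labels of the arms were exchanged was not tested and cannot be told from these files. An exchange would turn every direction given here.

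Total counts ran from 14951463 to 17094926 in the 6 libraries. Mitochondrial transcripts took 2.69% to 2.77% of counts in 85%-labelled and 3.33% to 3.77% in 21%-labelled libraries. In the 85%-labelled libraries of day 1, which also enter the estimate of the spread, they took 5.31% to 19.1%. Lung markers were present in both arms: Sftpc, the type 2 cell surfactant protein, averaged 5595 ± 671 CPM in 85%-labelled and 11185 ± 1440 CPM in 21%-labelled lungs. Rank correlations across genes were 0.981 to 0.990 within the 85%-labelled arm, 0.978 to 0.984 within the 21%-labelled arm and 0.944 to 0.954 between arms. The first principal component, with 56.9% of the variance, separated the arms. On the second, with 15.6%, 85%-labelled replicate 3 and 21%-labelled replicate 2 stood apart from the others.

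Both of these libraries carried genes far above their 2 companions. The cartilage collagen gene Col2a1 measured 0.659, 0.316 and 228 CPM in the 85%-labelled libraries and 0.376, 0.121 and 0 CPM in the 21%-labelled libraries, so replicate 3 alone held nearly all of it. Bpifa1, a secreted protein of large airways, measured 0.0599, 0 and 113 CPM against 0.815, 0.182 and 0 CPM. Col8a1, a short-chain collagen, measured 2.64, 2.21 and 5.66 CPM in the 85%-labelled arm and 7.65, 70.8 and 4.65 CPM in the 21%-labelled arm, highest in replicate 2. The chitinase gene Chia, at 6.83, 6.57 and 16.7 CPM against 208, 728 and 159 CPM, was highest there too. Without that library the Col8a1 difference was -0.84 with an adjusted p of 0.454. Heart muscle genes were graded over the 85%-labelled libraries: Myh6, a cardiac myosin, measured 37.3, 86.5 and 368 CPM there and 0, 0.182 and 0.122 CPM in the 21%-labelled libraries. Of 10 heart muscle genes tested, 8 were called higher, and 1 was without both libraries that stand apart. Of 8 cartilage genes, 6 were called higher, and none was without both. These genes are not counted below as lung results.

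**Figure D1:**
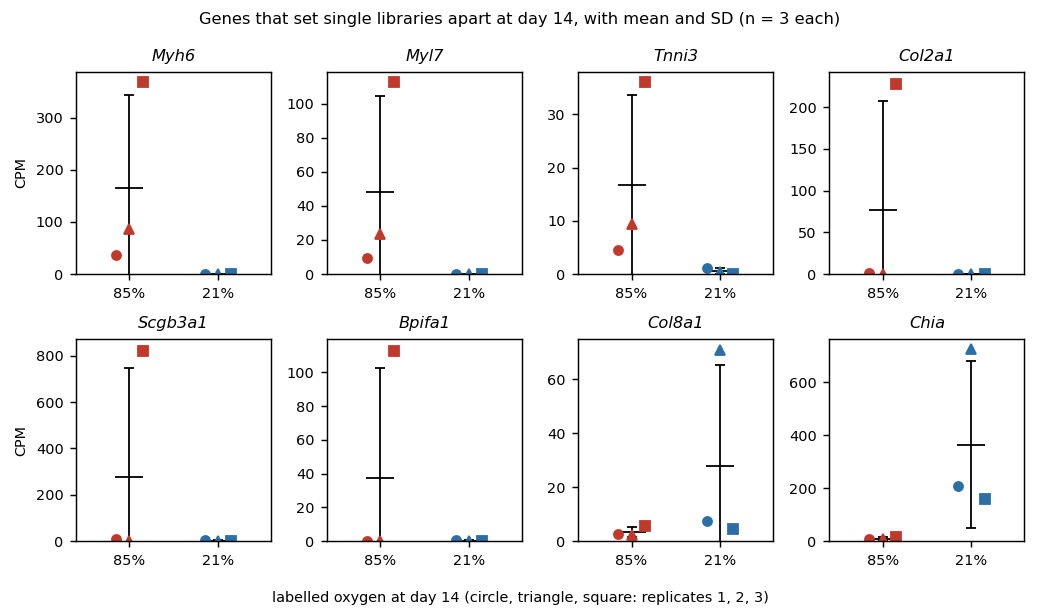
CPM (counts scaled to library size) of 8 genes in each library at day 14, 85%-labelled on the left and 21%-labelled on the right, with bars for the mean and SD (n = 3). Col2a1, Scgb3a1 and Bpifa1 were high in 85%-labelled replicate 3 alone, Col8a1 and Chia were highest in 21%-labelled replicate 2, and Myh6, Myl7 and Tnni3 were above the 21%-labelled arm in all 3 85%-labelled libraries.

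A gene was called at a Benjamini-Hochberg adjusted p under 0.05 in edgeR's quasi-likelihood test together with a log2 difference of 0.5 or more in either direction, which gave 3728 genes, 21.2% of the 17571 tested. Of these, 1839 (10.5% of genes tested) were higher and 1889 (10.8%) were lower in the 85%-labelled arm. The higher genes reached further: 1180 of them and 774 of the lower genes differed by at least 1 on the log2 scale, and 471 and 239 by at least 2. The 3 libraries of one arm lay wholly above the 3 of the other for 8797 genes, 50.1% of those tested, so separation of the libraries alone is common here and says little of a single gene. The median log2 fold change of all genes was 0.0096 and the median size 0.418. Beside log2 fold changes, which are 85%-labelled over 21%-labelled, the SE is an approximation from the test statistic, and adjusted p-values are from edgeR's test over all genes. Without both libraries that stand apart, 2912 genes were called, 1313 higher and 1599 lower, and 2671 of them were among the 3728. In whole-lung RNA, fewer cells of a type and less RNA per cell cannot be told apart.

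Among the widest falls were Retnla (-5.77) and Chia (-5.18), products of alternatively activated immunity and of airway and alveolar cells in rodents, and Gdf15 (-4.76). Pla2g2a, a secreted phospholipase, measured 0.599, 1.20 and 1.05 CPM in the 85%-labelled libraries against 21.9, 11.3 and 21.8 CPM in the 21%-labelled libraries. Frzb, a secreted Wnt antagonist, measured 5.87, 5.94 and 16.7 CPM against 124, 181 and 199 CPM, and Prxl2a, a thioredoxin-like redox gene, 18.2, 19.2 and 16.3 CPM against 343, 251 and 282 CPM. Cfi, which inactivates complement C3b and C4b, had a log2 fold change of -3.85, and Ly6i one of -3.91. Ly6i rested on 21%-labelled replicate 2, at 160 CPM there, and without it the log2 fold change was -1.46 with an adjusted p of 0.349.

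The widest rises, apart from the heart genes Myh6, Myl7 and Tnni3, were led by Vtn, which encodes the adhesive glycoprotein vitronectin (ENSRNOG00000010031, chromosome 10, 65767053 to 65771038 as deposited, whose build the sources used here do not give). It measured 35.4, 26.2 and 32.7 CPM in the 85%-labelled libraries and 0.376, 0.182 and 0.917 CPM in the 21%-labelled libraries, a log2 fold change of 5.98 (SE 0.43, adjusted p = 4.22e-09). Ntrk2, the receptor of brain-derived neurotrophic factor, measured 67.2, 53.9 and 103 CPM against 1.82, 1.27 and 2.32 CPM. Glp1r, the receptor of glucagon-like peptide 1, measured 87.7, 62.2 and 90.7 CPM against 3.13, 3.82 and 4.95 CPM. Gpihbp1, which anchors lipoprotein lipase on capillaries, measured 15.5, 15.7 and 17.6 CPM against 1.13, 0.545 and 0.367 CPM. The other rises in this group were Col6a4 (4.12), Hsd11b2, which inactivates glucocorticoids (4.03), the amino acid transporter Slc7a10 (3.79), the death ligand gene Tnfsf10 (3.77) and Hpgd, which degrades prostaglandins (3.66).

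**Figure D2:**
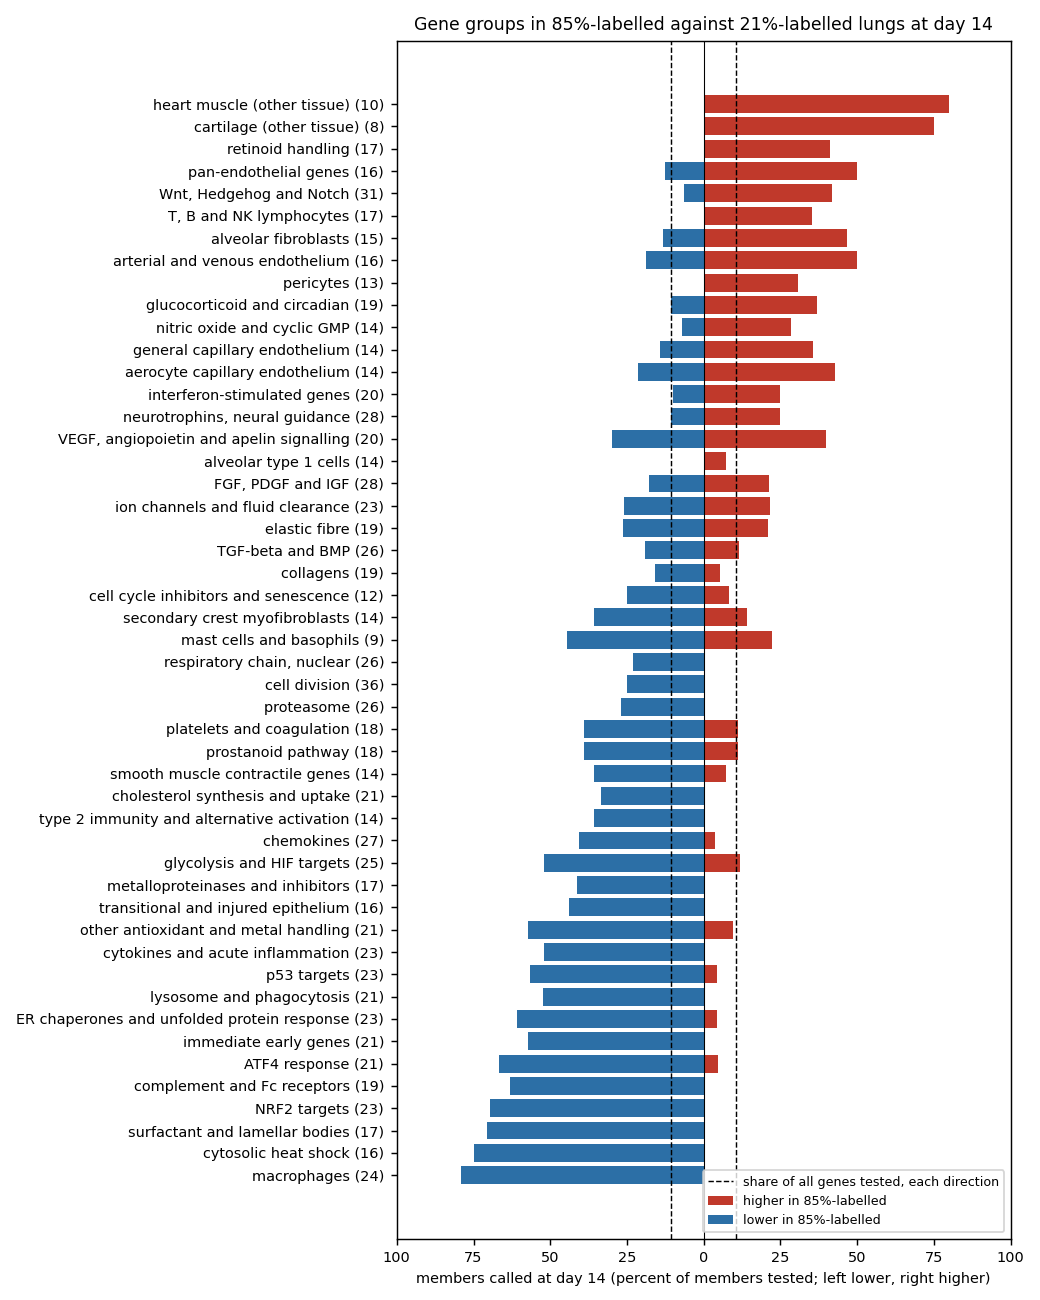
Share of the tested members of gene groups called higher (right, red) or lower (left, blue) in 85%-labelled than in 21%-labelled lungs at day 14. The number tested is in brackets, and dashed lines mark the share of all genes tested (10.5% higher, 10.8% lower). Some groups are not drawn, many of them with few called members. These are the airway secretory, motile cilia, lymphatic, neutrophil, MHC, erythroid, lipid storage, cytosolic ribosomal and mitochondrially encoded groups. Skeletal muscle, thymus, squamous epithelium and fat are left out too. Macrophage, heat shock, NRF2, ATF4 and chaperone groups extend far to the left, and blood vessel endothelial, Wnt, Hedgehog and Notch, and retinoid groups to the right. The heart muscle (8 of 10) and cartilage (6 of 8) groups reach furthest to the right. They are drawn here but not counted as lung results, because single libraries carried much of them.

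More blood vessel endothelial genes were called higher than lower in the 85%-labelled arm. Each list count here and below stands beside 10.5% of all genes tested called higher and 10.8% called lower. Counts near those shares say nothing particular of a list. Of 16 pan-endothelial genes tested, 8 were higher and 2 lower (median log2 fold change 0.87, against 0.0096 over all genes). General capillary genes split 5 higher to 2 lower of 14, aerocyte genes, which mark the large gas-exchange capillary cell, 6 to 3 of 14 (3 to 3 without 85%-labelled replicate 1), and arterial and venous genes 8 to 3 of 16. Of 10 genes of lymphatic endothelium, none was higher and 2 were lower (median -0.06), with 1 lower without 85%-labelled replicate 1 or 2 or 21%-labelled replicate 1. Of the pan-endothelial genes 1 was lower without any single library other than 21%-labelled replicate 2, and of the arterial and venous genes 1 was lower without both libraries that stand apart. Kit, a receptor tyrosine kinase of general capillary cells and mast cells, measured 314, 315 and 306 CPM against 16.9, 55.6 and 36.0 CPM (log2 fold change 3.11, SE 0.29, adjusted p = 5.42e-08). Tmem100, a BMP-dependent endothelial membrane protein, measured 376, 315 and 297 CPM against 21.1, 58.5 and 70.0 CPM. Aplnr, the apelin receptor, measured 462, 441 and 388 CPM against 41.5, 146 and 83.4 CPM. For all 3 genes every 85%-labelled library was above every 21%-labelled one, as for 1794 of all 1839 genes called higher. Clec14a, an endothelial adhesion lectin, and Tie1, an orphan receptor of the angiopoietin system, rose by 1.78 and 0.92 on the log2 scale. Among members that did not pass were Plvap (log2 fold change -0.24, adjusted p = 0.481), Vwf (0.18, adjusted p = 0.683), Sox18 (0.32, adjusted p = 0.322) and Robo4 (1.04, adjusted p = 0.686).

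The 2 capillary types did not move as blocks. In the aerocyte list Prx, a scaffold protein, measured 329, 259 and 303 CPM against 26.4, 39.5 and 46.5 CPM (log2 fold change 2.99, SE 0.22, adjusted p = 4.22e-09), and Kdr, the main VEGF receptor, 601, 553 and 504 CPM against 139, 227 and 257 CPM (1.41, SE 0.25, adjusted p = 1.56e-04). Fibin, a secreted factor, fell with 89.9, 73.4 and 75.1 CPM against 240, 201 and 241 CPM, and the integrin gene Itga3 and the ligand gene Apln fell by 0.93 and 1.16. Apelin and its receptor thus lay in opposite directions, Apln at 187, 199 and 155 CPM against 406, 281 and 518 CPM. In the arterial and venous list, Gja5, a gap junction protein of large arteries, fell by 1.75 while Gja4, another arterial connexin, rose by 1.87 with 105, 94.1 and 100 CPM against 21.3, 33.6 and 26.8 CPM. Efnb2, the arterial ephrin ligand, rose with 310, 264 and 269 CPM against 63.7, 106 and 104 CPM, and the chemokine receptor gene Cxcr4 with 98.1, 93.3 and 78.0 CPM against 16.2, 18.8 and 23.3 CPM.

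In the list of 20 VEGF, angiopoietin and apelin signalling genes, 8 were higher and 6 lower. Calcrl, the adrenomedullin receptor, measured 693, 525 and 593 CPM in 85%-labelled and 72.4, 138 and 109 CPM in 21%-labelled libraries, and Nrp1, a VEGF co-receptor, 636, 587 and 527 CPM against 188, 274 and 280 CPM. Adm, which encodes adrenomedullin, measured 7.79, 7.01 and 6.32 CPM against 66.9, 47.3 and 36.0 CPM (log2 fold change -2.83, SE 0.30, adjusted p = 2.33e-07). Esm1, a secreted proteoglycan of VEGF-stimulated tip cells, measured 11.0, 7.20 and 7.21 CPM against 280, 60.9 and 126 CPM. Vegfa itself had an adjusted p of 6.38e-04 but a log2 fold change of 0.49, just under the size threshold. The ligand gene Vegfd was called higher (0.99), and Vegfc (-0.35), Flt1 (0.42), Flt4 (0.04), Nrp2 (-0.30) and Angpt1 (-0.08) did not pass.

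In the nitric oxide and cyclic GMP list, which relaxes pulmonary vessels, 4 of 14 genes were higher and 1 lower. Gucy1a1, a subunit of soluble guanylate cyclase, measured 389, 368 and 316 CPM against 72.4, 81.5 and 105 CPM (log2 fold change 2.05, SE 0.14, adjusted p = 3.46e-09). Its partner subunit Gucy1b1 rose by 1.25, and Nostrin, which traffics endothelial nitric oxide synthase, measured 77.6, 66.8 and 61.2 CPM against 9.15, 6.36 and 11.7 CPM. The synthase gene Nos3 did not pass (0.07, adjusted p = 0.825). Cav1 rose by 0.60 and Ddah1, which degrades a synthase inhibitor, fell by 0.57. Both calls were lost when a single library was left out: Cav1 without 85%-labelled replicate 1 (adjusted p = 0.0579) or 21%-labelled replicate 2 (0.0756), and Ddah1 without any of the 85%-labelled replicates or 21%-labelled replicate 1 (0.06 to 0.174).

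Notch, Hedgehog and Wnt genes, which pattern vessels and septa, were higher in 13 of 31 tested and lower in 2. Dll4, the endothelial Notch ligand, measured 110, 110 and 90.2 CPM in 85%-labelled libraries and 10.4, 17.5 and 22.9 CPM in 21%-labelled libraries (log2 fold change 2.61, SE 0.27, adjusted p = 1.46e-07). The receptor gene Notch1 measured 281, 254 and 270 CPM against 86.3, 117 and 97.2 CPM and Notch4 115, 109 and 115 CPM against 62.2, 62.1 and 65.7 CPM. Fzd4, a Norrin and Wnt receptor of endothelium, measured 197, 195 and 191 CPM against 62.5, 86.5 and 83.7 CPM, and Ptch1, the Hedgehog receptor and target, 254, 258 and 204 CPM against 96.6, 145 and 122 CPM. All 5 were separated by arm, as were 1794 of all 1839 genes called higher and 50.1% of genes tested. Members that did not pass included Shh (0.06), Notch2 (0.37), Notch3 (0.83), Jag1 (0.34), Wnt5a (0.52) and Gli2 (0.63).

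**Figure D3:**
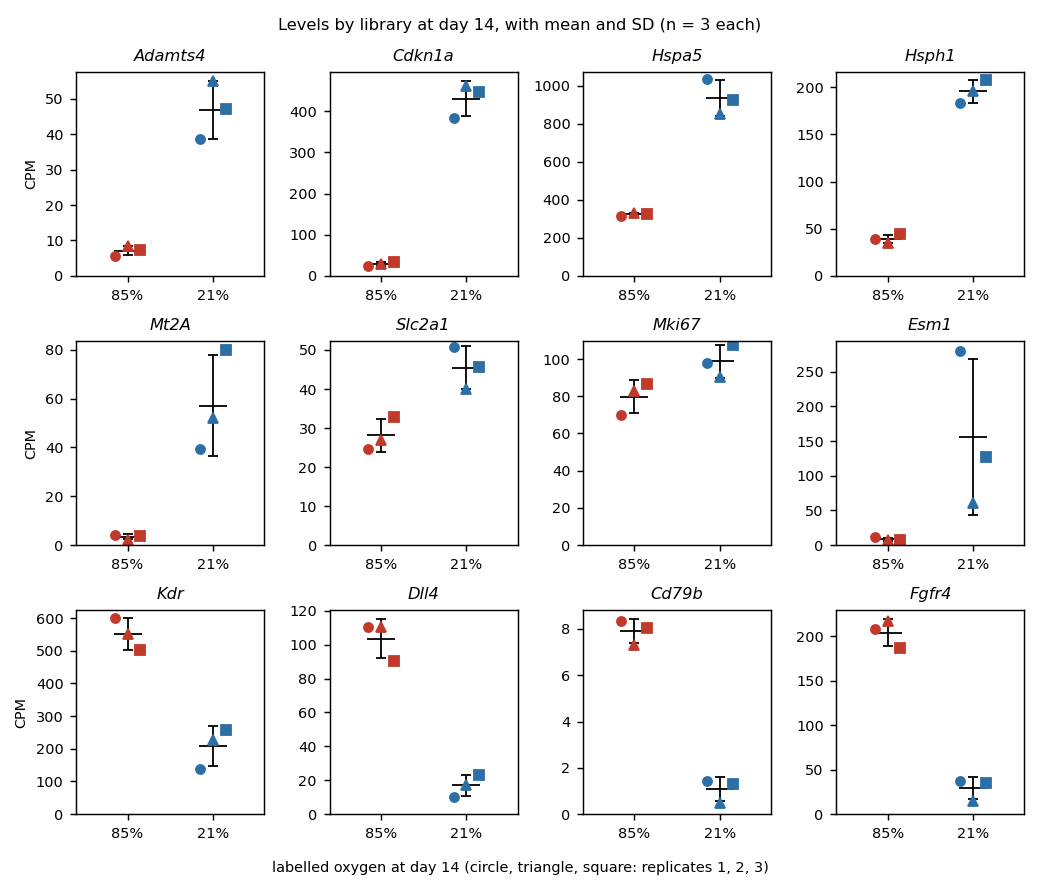
CPM (counts scaled to library size) of 12 genes in each day 14 library, 85%-labelled on the left and 21%-labelled on the right, with bars for the mean and SD (n = 3 each) and a linear axis from 0. The arms do not overlap for Adamts4, Cdkn1a, Hspa5, Hsph1, Mt2A, Esm1, Kdr, Dll4, Cd79b, Fgfr4, Slc2a1 and Mki67, and Mki67 did not pass the test. Of all genes tested, 50.1% do not overlap.

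Among fibroblast lists, alveolar fibroblast genes were 7 higher and 2 lower of 15 tested, with a median log2 fold change of 0.90. Fgfr4, an FGF receptor, measured 208, 217 and 187 CPM in 85%-labelled and 37.1, 15.2 and 35.3 CPM in 21%-labelled libraries (log2 fold change 2.80, SE 0.26, adjusted p = 3.87e-08). G0s2, an inhibitor of triglyceride breakdown, measured 113, 106 and 75.6 CPM against 25.9, 6.36 and 26.5 CPM. The ligand gene Wnt2 rose by 1.15 and the cytoskeletal linker gene Macf1 by 1.01. Tcf21 (0.29), Limch1 (0.96), Inmt (0.22), Itga8 (-0.51), Cdon (-0.49) and Plin2 (-0.38) did not pass. Pericyte genes were 4 higher and none lower of 13: Cox4i2, a respiratory chain subunit of lung mural cells, measured 53.1, 60.0 and 49.0 CPM against 6.89, 10.7 and 10.6 CPM, and the receptor gene Pdgfrb rose by 1.03.

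Contractile genes were more often lower than higher. Of 14 myofibroblast genes 2 were higher and 5 lower, and of 14 smooth muscle genes 1 was higher and 5 lower. The lower counts were 3 when 85%-labelled replicate 2 or 21%-labelled replicate 1 or 3 was left out for myofibroblasts, and 3 without 21%-labelled replicate 2 for smooth muscle. Tagln, an actin-binding protein of both cell types, measured 631, 539 and 705 CPM in 85%-labelled libraries and 1222, 1022 and 888 CPM in 21%-labelled libraries (log2 fold change -0.74, SE 0.19, adjusted p = 5.19e-03). Acta2, smooth muscle actin, measured 470, 421 and 706 CPM against 1083, 1018 and 701 CPM, so the arms overlapped, and its call was lost without 21%-labelled replicate 1 (adjusted p = 0.0562) or 85%-labelled replicate 2 (0.0556). Actg2 and Cnn1 lost theirs without 21%-labelled replicate 2 (adjusted p = 0.0666 and 0.0651). Myh11 (0.13), Myocd (0.27), Des (-0.94) and Lmod1 (-0.46) did not pass. Tgfbi, an adhesive matrix protein, and Pdgfra, the receptor that marks myofibroblast precursors, rose by 0.99 and 0.90.

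Elastin, the protein of the septal tips, did not pass: Eln averaged 15838 ± 1737 CPM in 85%-labelled and 14924 ± 1714 CPM in 21%-labelled lungs (SD, n = 3 each; log2 fold change 0.09, adjusted p = 0.728). Genes of elastic fibre assembly were called in both directions, with 4 of 19 elastic fibre genes higher and 5 lower. Fbln5, which tethers elastin to cells, measured 604, 691 and 707 CPM against 391, 240 and 299 CPM (log2 fold change 1.11, SE 0.16, adjusted p = 1.09e-05), and Mfap2, a microfibril glycoprotein, 224, 217 and 203 CPM against 74.3, 63.6 and 93.7 CPM. Efemp2, which brings lysyl oxidase to tropoelastin, fell with 69.0, 75.7 and 66.8 CPM against 133, 150 and 145 CPM, the crosslinker gene Loxl3 fell by 1.02 and Fbln1 fell by 1.41. The fibrillins Fbn1 (0.16) and Fbn2 (0.77), the crosslinker genes Loxl1 (0.30) and Loxl2 (-0.34), Emilin1 (0.00) and Ltbp1 to Ltbp3 (-0.40 to 0.22) did not pass. Fibrillar collagens did not pass either: Col1a1 was at 0.16, Col1a2 at -0.14 and Col3a1 at 0.34. Col18a1, the source of endostatin, fell with 155, 163 and 178 CPM against 483, 505 and 323 CPM.

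Matrix proteases and their inhibitors were lower in 7 of 17 tested and higher in none. Adamts4, an aggrecan-cleaving protease, measured 5.75, 8.46 and 7.32 CPM against 38.5, 55.0 and 47.0 CPM (log2 fold change -2.71, SE 0.25, adjusted p = 3.76e-08). Timp1, a metalloproteinase inhibitor, measured 34.6, 39.3 and 29.1 CPM against 130, 149 and 144 CPM, and Mmp2, gelatinase A, 1000, 984 and 1059 CPM against 1522, 2366 and 2504 CPM. Mmp9 (0.02), Mmp12 (0.78), Mmp14 (-0.19) and Timp2 (0.08) did not pass. In the coagulation list 7 of 18 genes were lower and 2 higher. Among the members with the smallest p were Procr, the endothelial protein C receptor, at 11.7, 15.2 and 13 CPM against 116, 62.9 and 69.0 CPM, Plaur, the urokinase receptor, at 6.23, 6.50 and 6.15 CPM against 24.1, 22.2 and 24.2 CPM, and F3, tissue factor, at 51.0, 52.1 and 83.9 CPM against 227, 216 and 186 CPM. Pf4, a chemokine of platelets and some macrophages, fell by 2.25, whereas the platelet genes Ppbp (0.51), Itga2b (-0.20), Gp9 (0.56) and Gp6 (-0.78) did not pass.

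In the epithelium, the 2 alveolar cell types differed in count. Of 17 surfactant and lamellar body genes, 12 were lower and none higher, and of 14 type 1 cell genes 1, Cav1, was higher and none lower. The surfactant count was 10 or 11 without any single library and 8 without both libraries that stand apart. Rab27a, a small GTPase of regulated secretion, measured 51.8, 48.1 and 59.1 CPM in 85%-labelled and 113, 127 and 110 CPM in 21%-labelled libraries (log2 fold change -1.14, SE 0.14, adjusted p = 1.22e-06). Cebpa, a transcription factor of type 2 cell maturation, measured 80.0, 87.2 and 82.9 CPM against 145, 182 and 196 CPM. Abca3, the lamellar body lipid pump (-0.37, adjusted p = 0.365), Nkx2-1, the lung lineage factor (-0.25), Slc34a2 (-0.50) and Etv5 (0.42) did not pass, and the call of Sftpc was lost without any single 85%-labelled library and without 21%-labelled replicate 1 or 3 (adjusted p = 0.0528 to 0.0962). The type 1 cell genes Ager (0.16), Hopx (0.12), Pdpn (-0.14), Aqp5 (-0.33) and Rtkn2 (0.28) did not pass. Of 16 genes of transitional or injured epithelium, 7 were lower: Lgals3, galectin 3, measured 69.8, 62.3 and 66.2 CPM against 207, 170 and 202 CPM, and the EGF receptor ligand gene Areg 2.16, 1.77 and 0.998 CPM against 11.2, 6.67 and 16.1 CPM. Krt8 (-0.23), Krt18 (-0.36), Krt19 (-0.41) and Cldn4 (-0.14), the keratins and claudin of that state, did not pass.

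Ion transport genes were called in both directions. Among 23 tested, 5 were higher and 6 lower. The sodium channel subunit gene Scn3b measured 500, 463 and 388 CPM against 34.7, 103 and 84.6 CPM, Scn7a, a sodium-sensing channel, 208, 177 and 199 CPM against 26.4, 63.5 and 36.6 CPM, and Cacna1d, an L-type calcium channel, 164, 181 and 157 CPM against 49.8, 34.9 and 51.7 CPM. Atp1b1, the sodium pump subunit that drives alveolar fluid clearance, fell with 126, 105 and 155 CPM against 365, 427 and 342 CPM (log2 fold change -1.55, SE 0.28, adjusted p = 2.54e-04). The gamma subunit of the epithelial sodium channel, Scnn1g, did not pass (-0.16).

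More proteostasis genes were called lower than higher in the 85%-labelled arm. Of 23 tested chaperones and other unfolded protein response genes of the endoplasmic reticulum (ER), 14 were lower and 1 was higher (median log2 fold change -0.70). The higher gene was Ero1b, a call lost whenever a single library was left out. Of 16 heat shock genes 12 were lower and none higher (median -0.65). That list held the mitochondrial chaperonin genes Hspd1 and Hspe1 beside cytosolic members. Hspa5, the chief ER chaperone, measured 317, 329 and 324 CPM in 85%-labelled libraries and 1036, 849 and 925 CPM in 21%-labelled libraries (log2 fold change -1.53, SE 0.19, adjusted p = 2.19e-06). Calr, a lectin chaperone, measured 440, 451 and 430 CPM against 1107, 969 and 1034 CPM, Hsp90b1, the ER form of Hsp90, 424, 416 and 403 CPM against 853, 789 and 802 CPM, and Pdia4, a disulfide isomerase, 134, 135 and 126 CPM against 264, 249 and 252 CPM. In the cytosol, Hsph1, a nucleotide exchange factor for Hsp70, measured 39.2, 35.4 and 44.0 CPM against 184, 197 and 207 CPM (log2 fold change -2.31, SE 0.27, adjusted p = 1.02e-06), and Hspa8, the constitutive Hsp70, 266, 265 and 276 CPM against 637, 602 and 630 CPM. The mitochondrial chaperonin gene Hspd1 measured 107, 106 and 107 CPM against 208, 176 and 210 CPM. The arms were separated for each of these 7 genes, as for 1831 of all 1889 genes called lower and 50.1% of genes tested. Xbp1 (-0.57), Canx (-0.31), Herpud1 (-0.37), Dnajb9 (-0.43), Hsp90aa1 (0.59) and Cryab (-0.21) did not pass.

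Promoter sequences of these genes were read to show the elements that the groups are known for. The ER stress response element (ERSE) pairs a CCAAT box with CCACG over 9 bases and is bound by NF-Y and the stress factor ATF6. CCAAT, then any 9 bases, then CCACG, searched on both strands in the 250 bases before the gene start, was found in 9 of the 20 list members with a sequence, and in 22 of all 33469 promoters (0.0657%). The stretches below are from RefSeq (GRCr8), 5′ to 3′ on the gene's strand, with the element in capitals. A reverse match starts with CGTGG.
Hspa5, chr3:38452963-38453001, plus strand: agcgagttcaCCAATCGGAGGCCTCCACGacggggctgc
Hsp90b1, chr7:23012337-23012479, minus strand: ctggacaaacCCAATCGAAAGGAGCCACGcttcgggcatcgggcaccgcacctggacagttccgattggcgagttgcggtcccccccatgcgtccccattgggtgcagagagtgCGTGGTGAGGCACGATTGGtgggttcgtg
Calr, chr19:40213125-40213163, plus strand: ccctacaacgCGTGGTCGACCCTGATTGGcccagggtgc
Creld2, chr7:121789229-121789267, plus strand: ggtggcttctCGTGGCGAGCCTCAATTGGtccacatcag
Dnajc3, chr15:102432524-102432562, plus strand: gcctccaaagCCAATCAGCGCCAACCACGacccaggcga
Xbp1, chr14:84604548-84604586, plus strand: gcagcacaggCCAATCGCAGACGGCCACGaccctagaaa
Ero1b, chr17:92941448-92941486, plus strand: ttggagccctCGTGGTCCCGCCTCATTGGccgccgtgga

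Matches lay 232 to 25 bases before the start in genes that fell, that did not pass and that rose. Hspa5, Hsp90b1 (with 2 matches), Calr, Creld2 and Dnajc3 were called lower, 2 others did not pass, Xbp1 among them, and Ero1b rose by 0.50. Derl3 also held a match and had too few counts to be tested. Pdia4, which fell with the smallest p of the list, held no match to these letters in this window. The list was assembled from known members of the response, so a high share of matches was built into it.

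The heat shock element is a run of alternating GAA and TTC units bound by HSF1. Searched on both strands as GAA, TTC and GAA, or as TTC, GAA and TTC, with any 2 bases between units and overlaps allowed, it was found in 4 of 12 heat shock promoters and in 0.663% of all promoters. The 4 genes were Hspa8, Hsph1 and the chaperonin pair Hspd1 and Hspe1, which are read in opposite directions from a shared promoter and so show the same bases from the 2 strands.
Hsph1, chr12:10427322-10427354, plus strand: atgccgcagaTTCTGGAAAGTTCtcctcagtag
Hspe1, chr9:64084252-64084289, plus strand: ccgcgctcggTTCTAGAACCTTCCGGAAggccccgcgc
Hspd1, chr9:64084252-64084287, minus strand: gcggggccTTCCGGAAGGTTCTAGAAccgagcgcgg
All 4 were called lower, Hspe1 by 1.20 on the log2 scale. A match describes letters and is not evidence of binding in these lungs.

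The p53, ATF4 and NRF2 lists were lower by label as well, in 13 of 23, 14 of 21 and 16 of 23 tested genes, with 1, 1 and 0 higher. Aen, a p53-induced nuclease, measured 14.2, 17.0 and 16.9 CPM against 83.9, 80.7 and 75.9 CPM, and Gtse1, a p53-regulated protein of the S and G2 phases, 11.5, 15.3 and 19.7 CPM against 61.4, 60.3 and 69.1 CPM. Of the ATF4 genes, which restore amino acid supply, Cebpb measured 198, 173 and 182 CPM against 548, 452 and 574 CPM, and the amino acid carrier gene Slc7a5 56.9, 47.2 and 39.1 CPM against 112, 184 and 168 CPM. Slc7a11, the cystine carrier shared with NRF2, was low throughout, at 0.599, 0.631 and 0.333 CPM against 4.20, 6.67 and 8.13 CPM. Of the NRF2 genes, the aldo-keto reductase gene Akr1b8 fell most among the 5 with the smallest p (-3.52), at 12.3, 10.5 and 14.7 CPM against 183, 103 and 145 CPM. Sesn1 (0.40), Ddb2 (0.23), Rrm2b (0.75), Atf4 (-0.56), Phgdh (-0.12), Gclc (-0.39), Gclm (0.46) and Gstm1 (0.20) did not pass.

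Metal-binding and peroxide-removing genes gave 12 lower and 2 higher of 21. Mt2A, a zinc and copper metallothionein (ENSRNOG00000043098), measured 4.01, 2.15 and 3.88 CPM in 85%-labelled libraries and 39.4, 52.1 and 79.7 CPM in 21%-labelled libraries (log2 fold change -4.09, SE 0.50, adjusted p = 1.47e-06). Slc39a14, a zinc and iron importer, measured 18.7, 17.7 and 19.9 CPM against 57.5, 96.0 and 65.6 CPM, and the peroxiredoxin genes Prdx3 and Prdx5 fell by 1.09 and 1.69. Txnip, which binds and inhibits thioredoxin, rose with 881, 754 and 841 CPM against 276, 361 and 345 CPM. Catalase (Cat, -0.25), Sod1 (-0.44), Gpx3 (-0.61) and the zinc exporter gene Slc30a1 (0.38) did not pass. Metallothionein genes are known for clustered metal response elements, the sites of the zinc sensor MTF1. TGCACNC or TGCGCNC on either strand was found 4 times in the 250 bases before the start of Mt2A and 6 times before that of Mt1, and at least once in 5 of the 20 members of this list with a sequence (25%), against 20.6% of all promoters (RefSeq, GRCr8). The other matches were 3 before Tfrc, which was called lower, 2 before Slc30a1 and 3 before Mt3, which was not tested. The windows of the metallothionein genes called lower are shown.
Mt2A, chr19:10838709-10838958, minus strand: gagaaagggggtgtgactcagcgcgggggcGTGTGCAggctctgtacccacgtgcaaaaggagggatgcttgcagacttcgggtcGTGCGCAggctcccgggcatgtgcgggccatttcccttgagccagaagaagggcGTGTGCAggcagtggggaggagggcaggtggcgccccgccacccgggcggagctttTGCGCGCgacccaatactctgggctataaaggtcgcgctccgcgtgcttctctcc
Mt1, chr19:10832976-10833225, minus strand: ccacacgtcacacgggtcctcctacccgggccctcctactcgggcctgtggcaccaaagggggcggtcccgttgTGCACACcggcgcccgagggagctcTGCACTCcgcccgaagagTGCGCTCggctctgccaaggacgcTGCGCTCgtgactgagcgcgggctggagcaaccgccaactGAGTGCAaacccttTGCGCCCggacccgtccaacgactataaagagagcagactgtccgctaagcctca
Mt1, the neighbouring metallothionein, was named for this comparison after its values were seen and fell by 2.60. The 2 genes are close copies, and the sources used here do not give how reads shared between copies were counted.

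Immediate early genes, which cells switch on within minutes of a stimulus, were lower in 12 of 21 and higher in none, with the lowest median of the groups named here (-1.70). Egr1 measured 18.5, 12.1 and 11.1 CPM against 177, 87.3 and 198 CPM (log2 fold change -3.47, SE 0.29, adjusted p = 1.49e-08), Junb 61.8, 55.3 and 51.6 CPM against 227, 138 and 296 CPM, and the phosphatase gene Dusp1 134, 102 and 103 CPM against 385, 376 and 514 CPM. Jun (-0.03), Jund (-0.13), Klf4 (0.34) and Klf6 (-0.30) did not pass.

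Macrophage genes showed the highest share of lower calls among the immune groups, with 19 of 24 lower and none higher. Their summed level was 1500 to 1710 CPM in 85%-labelled and 3080 to 3420 CPM in 21%-labelled libraries. Cd14, an endotoxin co-receptor, measured 14.6, 12.6 and 15.7 CPM against 41.1, 42.3 and 46.8 CPM, and Adgre1, the F4/80 antigen, 15.8, 14.6 and 14.3 CPM against 35.2, 55.0 and 69.5 CPM. Csf1r, the receptor that all macrophages share, did not pass (-0.28, adjusted p = 0.154). Mrc1, Cd163 and Trem2, receptors of resident and alternatively activated macrophages, had log2 fold changes of -1.28, -2.68 and -2.56, and Cd163, at 7.61, 4.67 and 9.43 CPM in 85%-labelled against 22.4, 88.7 and 27.9 CPM in 21%-labelled libraries, was uneven in the 21%-labelled arm. Lysosomal genes were lower in 11 of 21 and higher in none. Npc2, a cholesterol carrier also abundant in surfactant, measured 441, 323 and 286 CPM against 1159, 1101 and 972 CPM, and the protease gene Ctsb 521, 498 and 457 CPM against 857, 946 and 894 CPM. In the complement and Fc receptor list, lower in 12 of 19, the protease gene C1r measured 193, 178 and 189 CPM against 401, 474 and 564 CPM and its partner C1s 60.0, 34.0 and 61.8 CPM against 277, 307 and 353 CPM. C3 (-0.13) and C4a (-0.57) did not pass.

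Soluble signals of inflammation were lower too, in 12 of 23 cytokine and acute phase genes and 11 of 27 chemokine genes, where Cxcr4 alone was higher. The chemokine count was 7 without both libraries that stand apart, and also 7 without 85%-labelled replicate 2 or 21%-labelled replicate 3. Ptx3, a soluble pattern receptor, measured 8.57, 9.85 and 8.21 CPM against 81.5, 40.8 and 65.2 CPM, and Lif, an IL-6 family cytokine, 1.38, 0.884 and 2.33 CPM against 14.0, 21.8 and 9.60 CPM. Il1b (0.42), Il1rn (-0.21), Csf2 (-0.21) and the neutrophil genes S100a8 (-0.05), S100a9 (-0.10), Mpo (-0.65) and Csf3r (-0.13) did not pass. Among 11 neutrophil granule genes tested, 1 was higher and 1 lower, with log2 fold changes from -3.41 to 1.43. Over all genes tested, 10.5% were higher and 10.8% lower. The summed level of the neutrophil list was 90.1 to 92.1 CPM in 85%-labelled and 233 to 489 CPM in 21%-labelled libraries. In the prostanoid list, 7 of 18 were lower (4 without 85%-labelled replicate 1) and 2 higher: the synthases Ptgs1 and Tbxas1 fell, Ptgs1 with 29.4, 23.9 and 37.3 CPM against 64.4, 149 and 76.4 CPM, while Hpgd rose with 63.5, 60.7 and 45.6 CPM against 2.57, 4.55 and 6.30 CPM.

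Of 17 lymphocyte genes tested, 6 were higher and none lower, at low levels. The higher count was 4 without 85%-labelled replicate 2, 21%-labelled replicate 1 or 2, or both libraries that stand apart. Summed levels of the list overlapped, at 62.4 to 73.6 CPM in 85%-labelled and 46.7 to 81.5 CPM in 21%-labelled libraries. The B cell receptor subunit gene Cd79b measured 8.33, 7.32 and 8.04 CPM in 85%-labelled libraries and 1.44, 0.485 and 1.28 CPM in 21%-labelled libraries (log2 fold change 2.88, SE 0.39, adjusted p = 6.41e-06). Ms4a1, which encodes CD20, measured 3.00, 2.97 and 4.93 CPM against 0.439, 0.545 and 0.428 CPM. The T cell gene Cd3e rose by 2.07, a call lost without 21%-labelled replicate 1 or 2 or 85%-labelled replicate 2 (adjusted p = 0.0566 to 0.11). Cd4 (-0.99), Cd8a (0.72), Cd8b (0.48), Nkg7 (0.07) and Gzma (0.22) did not pass. Rag1, an antigen receptor recombinase of developing lymphocytes and of thymus, was also higher, at 2.52, 0.947 and 5.16 CPM against 0.376, 0.667 and 0.55 CPM, and its part in the lymphocyte values was not tested. In the mast cell list, Kit and Gata2, which endothelium shares, rose, while the granule proteases Cma1 and Tpsab1 fell, Cma1 with 4.13, 1.14 and 5.05 CPM against 16.5, 29.8 and 11.0 CPM. Tpsab1 shares close sequence with Tpsb2 (0.14, did not pass), so its own level is uncertain.

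Glycolysis and hypoxia-response genes were lower in 13 of 25 and higher in 3. Ldha, lactate dehydrogenase A, measured 264, 249 and 243 CPM in 85%-labelled and 669, 623 and 691 CPM in 21%-labelled libraries (log2 fold change -1.39, SE 0.23, adjusted p = 8.15e-05), Eno1, an enolase, 178, 176 and 190 CPM against 356, 316 and 333 CPM, and Gapdh 140, 147 and 166 CPM against 484, 360 and 398 CPM. Gapdh has many processed copies in the genome, so its count is uncertain. Epas1, the HIF-2 alpha subunit of endothelium, was the opposite, at 3674, 3235 and 3386 CPM against 1170, 1711 and 1295 CPM. The HIF-1 alpha gene Hif1a had a log2 fold change of -0.47 (adjusted p = 0.0268), under the size threshold, and Bnip3 (0.04), Egln1 (-0.05), Egln3 (0.52) and Car9 (-1.08) did not pass. Of 21 cholesterol genes 7 were lower (4 without 21%-labelled replicate 1), among them Mvd (-0.95) and Idi1 (-1.06), both of the mevalonate branch, while Srebf2 (0.07) did not pass. No mitochondrially encoded gene of 13 passed.

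Division genes leaned lower, with 9 of 36 lower, none higher and a median of -0.49. The count of lower genes was 2, 7 and 5 without 85%-labelled replicate 1, 2 and 3, and 3, 13 and 2 without 21%-labelled replicate 1, 2 and 3. Tk1, thymidine kinase, measured 22.8, 32.0 and 29.1 CPM against 59.0, 49.8 and 63.8 CPM, and Ccne1, which drives entry into S phase, 3.41, 4.29 and 2.99 CPM against 7.96, 7.39 and 8.07 CPM. Mki67, the usual proliferation marker, averaged 79.7 ± 8.77 CPM in 85%-labelled and 98.7 ± 8.77 CPM in 21%-labelled lungs (SD, n = 3 each; log2 fold change -0.31, adjusted p = 0.299), and Pcna (-0.48), Cdk1 (-0.69), Ccna2 (-0.37) and Mcm2 (-0.35) did not pass. Ccnd1, cyclin D1, fell with 221, 239 and 221 CPM against 394, 368 and 443 CPM.

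Hormone, clock and vitamin A genes were mostly higher where they differed. In the glucocorticoid and circadian list, 7 of 19 were higher and 2 lower. Hsd11b2 measured 26.4, 27.2 and 14.3 CPM against 1.82, 1.15 and 1.16 CPM (log2 fold change 4.03, SE 0.34, adjusted p = 1.49e-08), and Fkbp5, a glucocorticoid-induced chaperone partner, fell with 20.1, 20.5 and 22.5 CPM against 41.8, 58.2 and 40.5 CPM. Tsc22d3, another classic glucocorticoid target, did not pass (0.06). Of the clock output and repressor genes, Nr1d2 measured 157, 136 and 128 CPM against 39.6, 67.5 and 58.7 CPM, Tef 187, 176 and 165 CPM against 78.3, 95.8 and 93.3 CPM and Cry2 90.9, 89.3 and 80.3 CPM against 48.3, 45.7 and 51.1 CPM. The core clock genes Arntl (-0.12), Clock (0.27), Per1 (-0.69), Per2 (0.17) and Cry1 (-0.30) did not pass, and the hour of sampling is not given. Retinoid genes, which serve septation, were higher in 7 of 17 (4 without 85%-labelled replicate 2) and lower in none: Cyp26b1, which degrades retinoic acid, measured 35.0, 43.9 and 42.3 CPM against 7.52, 10.5 and 13.4 CPM, and the receptor gene Rara 153, 163 and 137 CPM against 96.3, 85.1 and 90.3 CPM. The synthesis genes Aldh1a1 (-0.07), Aldh1a2 (0.10), Aldh1a3 (0.45) and Rdh10 (0.08) did not pass. Among 28 neurotrophin and guidance genes 7 were higher and 3 lower, where 10.5% of all genes tested were higher and 10.8% lower. The lower count was 1 or 2 without any single library (1 without both that stand apart). The vessel guidance pair Sema3g and Plxnd1 rose, Sema3g with 309, 260 and 303 CPM against 31.1, 46.1 and 39.2 CPM.

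**Figure D4:**
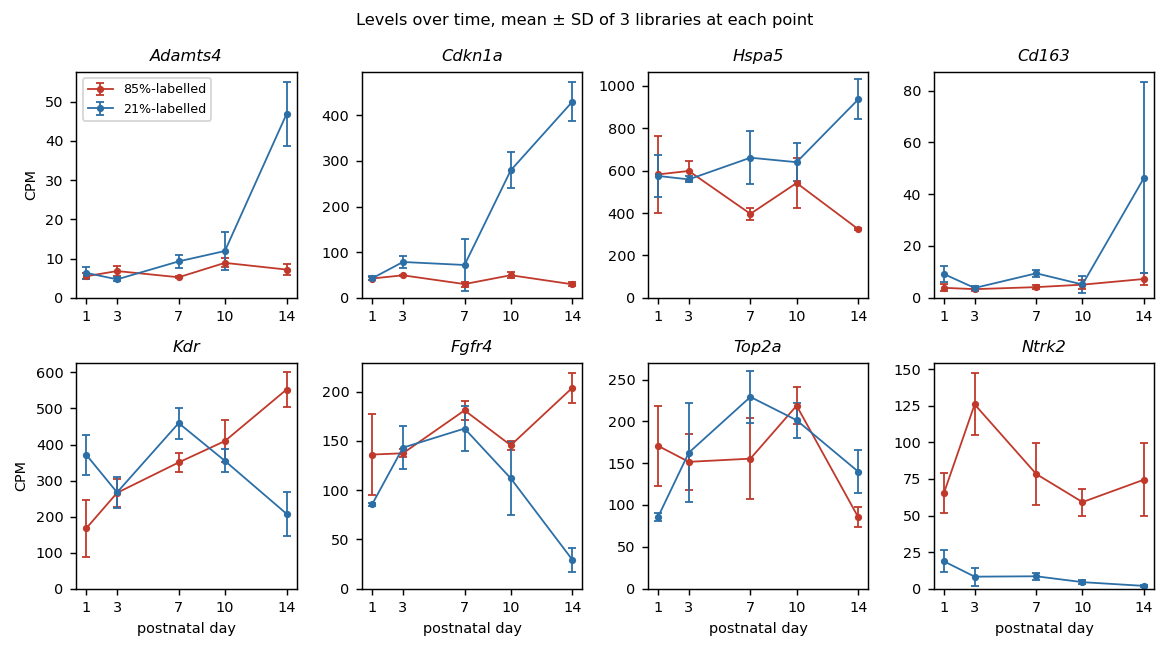
CPM (counts scaled to library size) of 8 genes on days 1, 3, 7, 10 and 14 in the 85%-labelled (red) and 21%-labelled (blue) arms, as mean and SD of 3 libraries, with linear axes from 0. Adamts4, Cdkn1a, Hspa5 and Cd163 were highest in the 21%-labelled arm at day 14, in the 21%-labelled arm Kdr and Fgfr4 had their lowest mean at that age, Top2a was called lower at day 14, and Ntrk2 was higher in the 85%-labelled arm at each of the 5 ages.

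Levels over the 5 ages are given for a few genes picked by no set rule, so they do not tell which arm moved in general. These are descriptions over separate libraries at each age, with no test. Adamts4 averaged 5.48, 6.80, 5.22, 8.89 and 7.18 CPM on days 1, 3, 7, 10 and 14 in the 85%-labelled arm and 6.34, 4.68, 9.27, 11.9 and 46.8 CPM in the 21%-labelled arm. Hsph1 averaged 38.1, 39.9, 49.2, 63.7 and 39.5 CPM in the 85%-labelled arm and 58.0, 48.6, 72.7, 85.8 and 196 CPM in the 21%-labelled arm. In both genes the 21%-labelled mean at day 14 was above the other 9 group means. Fgfr4 averaged 136, 137, 181, 146 and 204 CPM against 85.6, 143, 163, 112 and 29.2 CPM, and Vtn 14.8, 20, 22.4, 9.14 and 31.4 CPM against 12.9, 12.6, 8.80, 4.09 and 0.492 CPM, and for both the 21%-labelled arm at day 14 held the lowest mean of the 10 groups. Kdr averaged 167, 266, 350, 410 and 553 CPM in the 85%-labelled arm, higher at each successive age, and 371, 267, 459, 355 and 208 CPM in the 21%-labelled arm. Ntrk2 was different: it averaged 65.2, 126, 78.4, 59.2 and 74.6 CPM against 18.7, 8.13, 8.39, 4.37 and 1.80 CPM, higher in the 85%-labelled arm at every age.

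The day 14 difference was set against that of day 10, which has its own 6 libraries, by testing the difference of the 2 differences in the same model. It was called (adjusted p under 0.05, no size threshold) for 670 genes, 3.81% of those tested, 330 (1.88%) with a more positive and 340 (1.94%) with a more negative difference at day 14, and 613 of them were among the genes called at day 14. At day 10, 515 genes (2.93%) were called by the rule used for day 14. Of these, 364 were called with the same sign on both days, 70.7% of the day 10 calls and 9.76% of the day 14 calls. Of the 3728 genes called at day 14, 3102 had the same sign at day 10. The share of genes with the same sign on both days was not counted over all genes tested, so 3102 has no background beside it. The count of 670 was 1163 with the mitochondrial share as a covariate, 1076 with DESeq2, 385 with the 12 libraries alone and 427 without both libraries that stand apart.

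The 10 genes with the smallest p in that test were Hsd11b2, Vtn, Prx, Jak3, Chia, Adra2b, Krt76, Basp1, Retnla and Susd4. Hsd11b2 averaged 7.91 CPM in 85%-labelled and 8.13 CPM in 21%-labelled lungs at day 10, a log2 fold change of -0.04. At day 14 it averaged 22.6 CPM in 85%-labelled and 1.38 CPM in 21%-labelled lungs, so the means of both arms differed from day 10. Its difference moved by 4.07 (SE 0.44, adjusted p = 1.87e-05). Vtn moved by 4.82 and Prx by 2.54 in the same direction. Jak3, a kinase of lymphoid cytokine receptors, was at -0.03 on day 10 and measured 17.1, 15.8 and 20.1 CPM against 45.9, 62.7 and 49.2 CPM at day 14. Chia and Retnla had positive log2 fold changes at day 10, 1.36 and 0.70, neither of them called, and were called lower at day 14. Adra2b, an adrenergic receptor gene, was at -0.38 on day 10 and 2.27 on day 14. Krt76, a keratin, was called lower on day 10 (-1.56, adjusted p = 0.0202) and higher on day 14 (2.73), with its difference more positive by 4.30. Basp1, a membrane protein of growing cell edges, measured 15.2, 17.6 and 16.4 CPM against 172, 172 and 168 CPM at day 14, where its difference was more negative by 2.60. Susd4, a complement inhibitor, moved by 2.59.

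By group, 10 of 24 macrophage genes, 8 of 19 complement and Fc receptor genes, 6 of 23 ER chaperone genes and 6 of 19 elastic fibre genes had changed. Of all genes tested, 3.81% had changed, and counts near that share say nothing particular of a list. The ER chaperone and heat shock lists had no called gene at day 10, where their medians were -0.15 and -0.33. Of all genes tested, 2.93% were called at day 10, so the lack of a call in such short lists says little. For Hspa5 the change was -1.29 on the log2 scale (adjusted p = 5.47e-03) and for Mt2A the change was -4.28 (adjusted p = 4.20e-04). The p53 list had 8 lower calls among its 23 genes at day 10. None of the 23 passed the test of a change, which is near the share of all genes and does not show that the list was stable. Cdkn1a was at -2.50 on day 10 and -3.87 on day 14 (adjusted p of the change 0.0735), and Gdf15 at -5.35 and -4.76 (0.766). Of 36 division genes, 4 had changed; the list's median was 0.28 on day 10. Among fibroblast genes, Fgfr4 was at 0.38 on day 10 and its difference was more positive by 2.43 at day 14 (adjusted p = 3.12e-04).

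**Figure D5:**
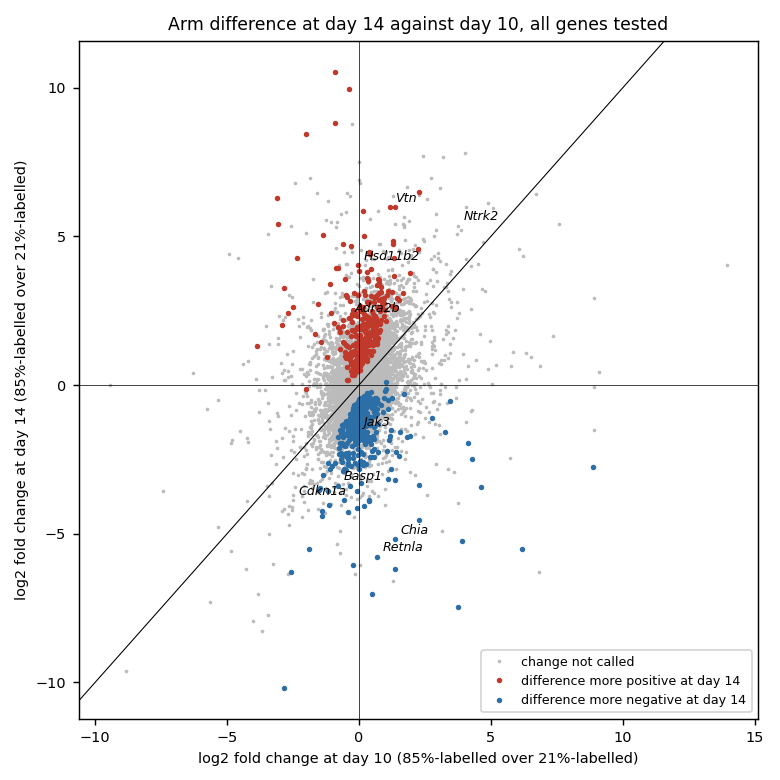
Log2 fold change of 85%-labelled over 21%-labelled lungs at day 14 (vertical) against day 10 (horizontal) for the 17571 genes tested, with the diagonal drawn and genes whose difference changed between the days in red (more positive at day 14, 330 genes) or blue (more negative, 340 genes). Vtn and Hsd11b2 lie high above the diagonal, Chia and Retnla far below it, and Cdkn1a and Ntrk2 are not coloured.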

How the data were processed

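Gene counts of 30 rat lung libraries were used as the authors deposited them; the 6 of day 14 are reported, and the other 24 enter the fit. The authors' FPKM values, in the same deposited table, were not tested. The authors' deposited log2 ratios and p-values for day 14 run 21% over 85% and served only as a check: of the 3728 genes called here, 3556 had an adjusted p under 0.05 in the same direction in the authors' deposited table, and 0 had the other direction. The sources used here do not give the aligner or counter, and the submitters' processing notes list mouse builds although the gene IDs are rat.

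Counts were fitted with edgeR 4.0.16 (R 4.3.3; filterByExpr, TMM scaling, robust quasi-likelihood) over 10 group means with 20 residual degrees of freedom, which gives a shared estimate of the spread. CPM values use the TMM-scaled library sizes. The day 14 test was also run on simulated data with 17335 genes. It recovered 66 of 100 genes changed by 1 and 90 of 100 changed by 2 on the log2 scale, with 5 false calls. The test between days recovered 31 and 80 of 100, with 5 false calls. In the lungs 21.2% of genes tested were called at day 14, and recovery at such a share was not tested. Genes named are the 12 widest rises and falls among called, well expressed genes without overlap, up to 5 called genes of smallest p in each list described with members that did not pass, the 10 of smallest p for the change from day 10, and 10 genes named outright (Cdkn1a, Gdf15, Nqo1, Hmox1, Sftpc, Eln, Kdr, Mki67, Ntrk2 and Glp1r); other called members given by value only were chosen after their values were seen. The gene lists and the comparison were chosen with earlier results of these data known. Alternatives were another scaling, other filters, DESeq2 1.42.0, limma-voom 3.58.1, a mitochondrial covariate, fewer libraries, a replicate block and leaving out each library. Some genes and promoter stretches that these rules would name are not reported here.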

Additional observations from a re-analysis of the deposited data

Results flagged for a closer look

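The difference between 85%-labelled and 21%-labelled lungs was not the same at day 14 as at day 10 for 670 genes, by a test of the difference itself in edgeR's quasi-likelihood model. The 10 genes with the smallest p moved by these amounts on the log2 scale, day 14 minus day 10. More positive at day 14 were Hsd11b2 by 4.07, Vtn by 4.82, Prx by 2.54, Adra2b by 2.64, Krt76 by 4.30 and Susd4 by 2.59. More negative were Jak3 at -1.54, Chia at -6.54, Basp1 at -2.60 and Retnla at -6.47. Chia and Retnla were highest in 21%-labelled replicate 2 at day 14, with 728 and 210 CPM.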

How the results depend on the processing

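The day 14 count of 3728 genes was 3455 to 4515 under another scaling, other filters, DESeq2, limma-voom, a mitochondrial covariate, no size threshold, or the 6 libraries alone. It was 1954 (1180 higher, 774 lower) at a size of at least 1 on the log2 scale. Leaving out each library gave 2893 to 3567 genes, 1463 to 1583 higher and 1430 to 1984 lower. Same-numbered libraries of the 2 arms did not deviate together (correlations -0.0573, -0.148 and -0.251), so they share only a number; with the replicate block, 3894 genes were called at day 14, 3107 of them among the 3728, and 116 for the change from day 10. The count of 670 changed genes was 1163 with the mitochondrial covariate, 1076 with DESeq2, 385 with the 12 libraries alone and 427 without both libraries that stand apart, and ran from 398 (without 85%-labelled day 10 replicate 2) to 779 when each library was left out; it was 402 without 85%-labelled day 14 replicate 2. The cause of these shifts was not tested. Of 247 named genes called, 226 to 233 kept their call when a library was left out. The sign turned for Bpifa1, 6.80 over all libraries, which ran from -3.17 (without 85%-labelled replicate 3) to 8.58 when each was left out and was -3.46 without both libraries that stand apart, and for Col11a2, 2.03 over all libraries, which ran from -0.31 (without 85%-labelled replicate 3) to 2.52. With 3 libraries an arm, changes near 1 on the log2 scale can be missed, and the share missed in these lungs was not tested.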
